A study of Saccharomyces cerevisiae with 3 samples.

Results

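The 38 genes described here encode the enzymes and transporters that carry acetyl units, pyruvate and organic acids through the centre of yeast carbon metabolism, namely the tricarboxylic acid (TCA) cycle, the glyoxylate cycle, gluconeogenesis, pyruvate dehydrogenase, acetyl-CoA synthesis, the carnitine shuttle and the uptake of acetate and lactate. They were chosen by gene name, and all 38 carry a name on the array, among 4069 named genes in all. These genes and the further lists below were chosen with earlier results of these data known. Each of the 38 was measured by 7 spots on each array. The cells were wild-type BY4741, a haploid laboratory yeast with deletions in HIS3, LEU2, MET17 and URA3, and 3 cultures were grown separately. Each array received, from 1 culture, Cy3-labelled RNA of cells held for 15 minutes in 0.4 M NaCl and Cy5-labelled RNA of unstressed cells. Both came from mid-log cells grown at 30 °C in YPD, a rich medium with glucose. The dyes were not exchanged, so a dye effect particular to a gene cannot be told apart from an effect of NaCl.

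The TCA cycle oxidizes acetyl-CoA in mitochondria, and its enzymes are nuclear-encoded. The glyoxylate cycle skips the steps of the cycle that release carbon dioxide and lets yeast grow on acetate or ethanol, from which gluconeogenesis makes sugar. Several reactions are catalysed by isozymes in the mitochondrion, the cytosol and the peroxisome, which share a reaction but are encoded by separate genes. Many of these genes are repressed when glucose is plentiful.

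All values are log2 ratios of NaCl over untreated cells, averaged over the spots of a gene on each array. Log base and direction are not stated in the table and were inferred, and the direction holds only if Cy3 was set over Cy5. "Rose" and "fell" are used of genes with an adjusted p under 0.05 from limma over all 4069 genes. The ratio gives no level of a transcript in either condition, and spot intensities were not analysed here. As a guide to the ratio of spots whose gene is deleted in whole or in part, the 4 markers HIS3, LEU2, MET17 and URA3 lay between -0.21 and 0.11 on single arrays. Pearson's correlation across the 38 genes, which are not independent replicates, ranged between 0.874 for replicates 1 and 3 and 0.968 for replicates 2 and 3. Spots of near-identical genes, such as PYC1 and PYC2, may measure both.

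Of the 38 genes, 15 rose, 5 fell and 18 did not pass the test. In percent this was 39.5% rising and 13.2% falling, beside 26.9% rising and 27.9% falling among all 4069 genes. The median over the 38 genes was 0.12, 0.14 and 0.24 on replicates 1, 2 and 3, or 0.17 ± 0.06 (SD, n = 3), against -0.01 ± 0.01 over all named genes. More than 2-fold changes were seen for 5 of the 38 genes, beside 419 of all 4069 genes. IDP2, ICL1, ADY2 and JEN1 were higher and MAE1 lower. MAE1, a malic enzyme gene, stood at place 54 from the bottom of all 4069 genes.

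**Figure D1:**
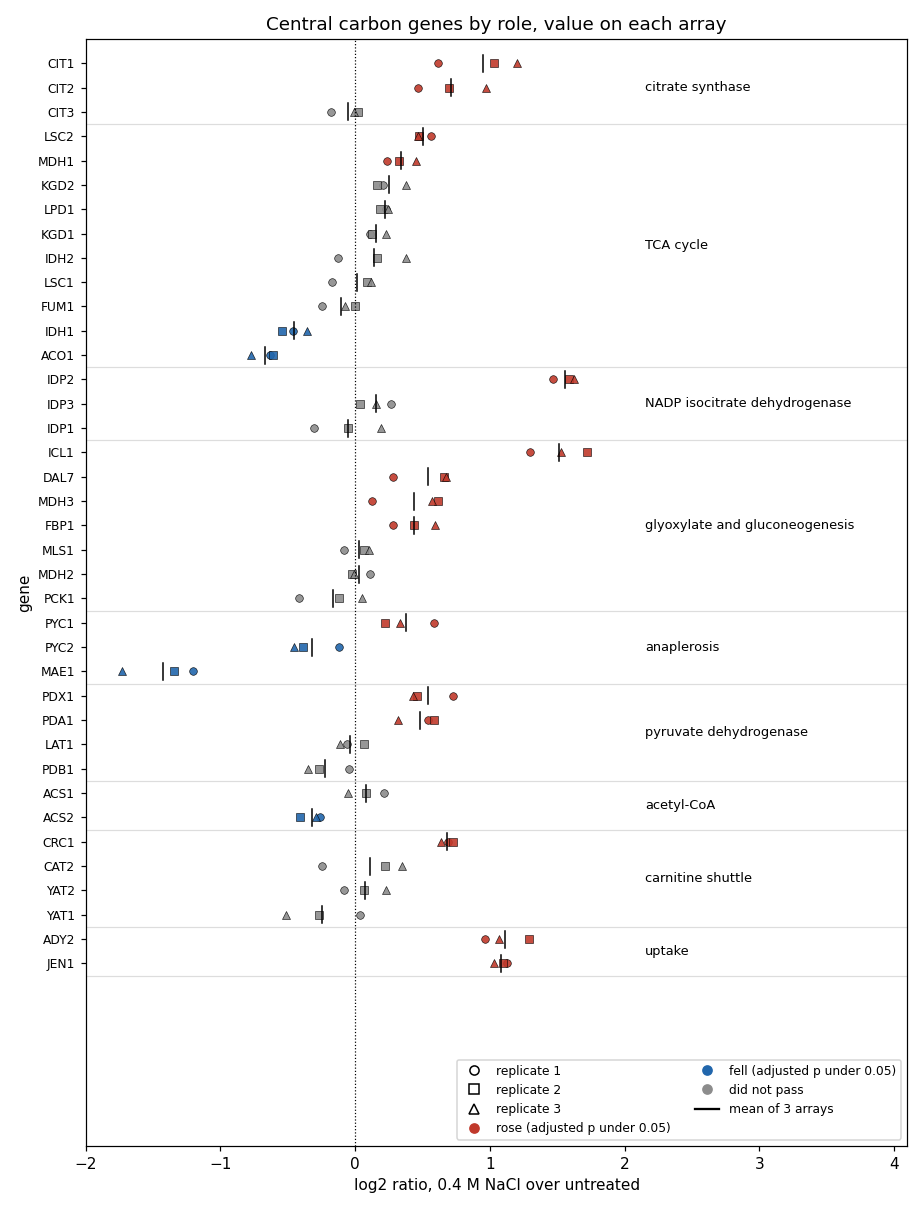
Log2 ratio (NaCl over untreated, x axis) of each of the 38 genes on the 3 arrays, grouped by role. Marker shapes are replicates, bars are means of 3 arrays and colours give the limma call. IDP2 and ICL1 stand furthest right, near 1.56 and 1.51, and MAE1 furthest left at -1.43.

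**Figure D2:**
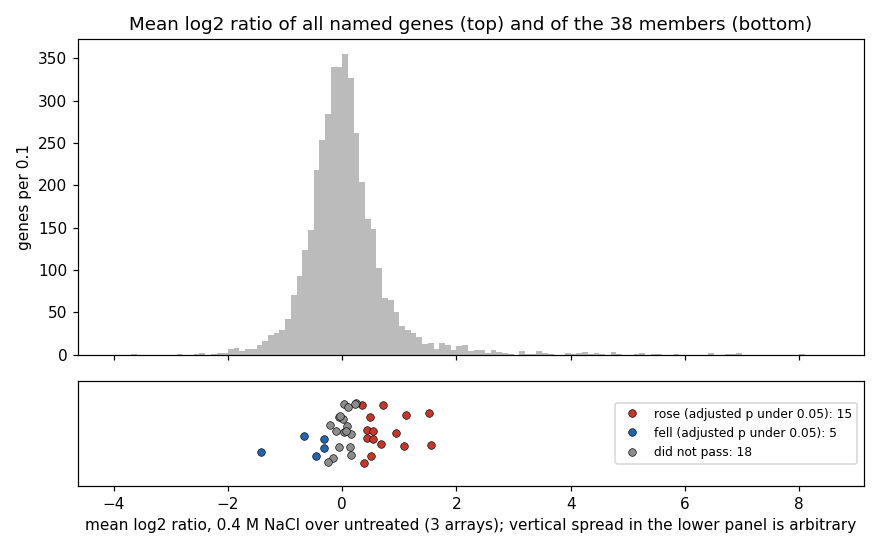
Histogram of the mean log2 ratio of all 4069 named genes (top, genes per bin of 0.1) over the means of the 38 genes (bottom, 1 point per gene, coloured by call). The 38 genes lie between -1.43 and 1.56, well inside the range of all genes.

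The genes of the mitochondrial TCA cycle moved in both directions, in shares a little below those of all genes. Of its 10 genes past citrate synthase among these 38, 2 rose, 2 fell and 6 did not pass. This was 20% rising and 20% falling, beside 26.9% rising and 27.9% falling among all 4069 genes. CIT1, which encodes the main mitochondrial citrate synthase and thus the entry of acetyl-CoA into the cycle, had log2 ratios of 0.62, 1.03 and 1.20 on replicates 1, 2 and 3. The value of replicate 1 was the lowest, and none of the 7 spots on that array, at most 0.72, reached the lowest spot of the other two, 0.90. CIT1 rose 1.93-fold (0.95 ± 0.30, SD, n = 3, adjusted p = 0.000436 from limma).

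The following enzymes went the other way or stayed nearer 0. ACO1, the gene of aconitase, had -0.63, -0.61 and -0.77 and fell 1.59-fold (mean -0.67 ± 0.09, adjusted p = 0.000576 from limma), with all 21 spot values below 0. IDH1, which encodes the regulatory subunit of the NAD-dependent isocitrate dehydrogenase, had -0.46, -0.54 and -0.36 and fell 1.37-fold (adjusted p = 0.00438). IDH2, which encodes the catalytic subunit of the same enzyme, had -0.12, 0.16 and 0.38 and did not pass (95% interval -0.13 to 0.41). IDH1 thus lay below IDH2 on every array, by 0.59 ± 0.22 on the log2 scale. Among the 38 genes, those of the alpha-ketoglutarate dehydrogenase were KGD1 (0.16 ± 0.06), KGD2 (0.25 ± 0.11) and LPD1 (0.22 ± 0.03). LPD1 encodes the lipoamide dehydrogenase shared with pyruvate dehydrogenase. KGD1, KGD2 and LPD1 were above 0 on all 3 arrays but did not pass. Their adjusted p was 0.186, 0.0574 and 0.0721.

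In the second part of the cycle, LSC2, the gene of the beta subunit of succinyl-CoA ligase, had 0.57, 0.47 and 0.47 and rose 1.42-fold (adjusted p = 0.00231 from limma). LSC1, the gene of its alpha subunit, had -0.17, 0.09 and 0.11 (95% interval -0.22 to 0.24). The fumarase gene FUM1 had -0.25, 0.00 and -0.07 (95% interval -0.33 to 0.12). MDH1, encoding the malate dehydrogenase that closes the cycle, had 0.24, 0.33 and 0.45 and rose 1.26-fold (adjusted p = 0.0177). The call for IDH1 was lost without replicate 2 (adjusted p = 0.0802), and that for MDH1 without replicate 2 (0.151) or replicate 3 (0.107). The mean of IDH1 was -0.45 with all 3 arrays and -0.41 without replicate 2. That of MDH1 was 0.34 with all 3 arrays, 0.34 without replicate 2 and 0.28 without replicate 3. IDH2 (0.0345) and KGD2 (0.0360) passed without replicate 1.

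Succinate dehydrogenase, the enzyme between succinyl-CoA ligase and fumarase, is not among the 38 genes. All 4 genes of its catalytic subunits and membrane anchors rose, with SDH1 at 0.94 ± 0.10, SDH2 at 0.81 ± 0.36, SDH4 at 0.80 ± 0.39 and SDH3 at 0.64 ± 0.09. SDH2 and SDH4 were spread in opposite order, at 0.45, 0.81 and 1.17 for SDH2 and 1.21, 0.75 and 0.43 for SDH4 on replicates 1, 2 and 3. Of the 7 measured genes in the same list, 5 rose (71.4%, against 26.9% of all named genes) and none fell. The remaining riser was KGD4, a further subunit gene of the alpha-ketoglutarate dehydrogenase, at 0.44 ± 0.28 (adjusted p = 0.0167 from limma). Its call was lost without replicate 2 (adjusted p = 0.128). SDH5 and SDH7 did not pass. KGD4, SDH5 and SDH7 were named after their values were seen.

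**Figure D3:**
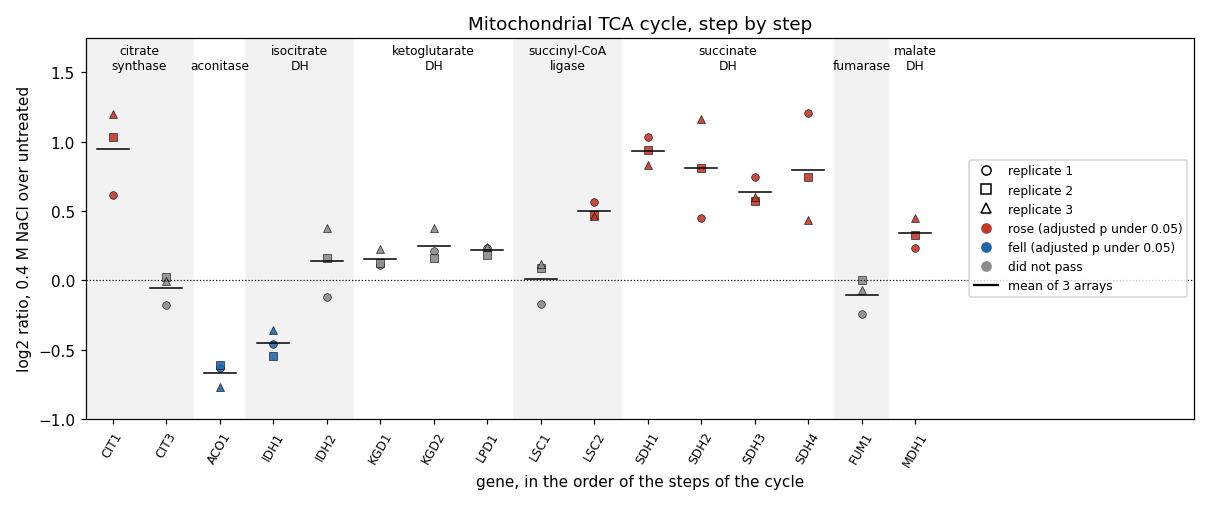
Log2 ratio (NaCl over untreated, y axis) of the mitochondrial TCA cycle genes on each array, in the order of the reactions. Shaded bands separate the steps, shapes are replicates and bars are means. Citrate synthase (CIT1) and succinate dehydrogenase stand above 0, and aconitase and IDH1 below it.

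Isozymes of some reactions differed in their ratios. The widest gap was among the NADP-specific isocitrate dehydrogenases, which make NADPH and alpha-ketoglutarate. IDP2, the gene of the cytosolic enzyme, had 1.47, 1.59 and 1.62 and rose 2.95-fold (1.56 ± 0.08, SD, n = 3, adjusted p = 5.4e-06 from limma). It held the highest mean of the 38 genes and place 137 from the top of all named genes. IDP1, the gene of the mitochondrial enzyme, had -0.30, -0.06 and 0.19 (95% interval -0.32 to 0.21), and IDP3, that of the peroxisomal enzyme, had 0.27, 0.04 and 0.15 (95% interval -0.07 to 0.37). IDP2 exceeded IDP1 by 1.62 ± 0.17 and IDP3 by 1.41 ± 0.19 on the log2 scale, many times the spread between arrays, whereas the difference of IDP1 and IDP3 changed sign between arrays (-0.21 ± 0.32).

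Among the citrate synthases, CIT2, which encodes the peroxisomal enzyme of the glyoxylate cycle and is the classical target of the retrograde pathway, had 0.46, 0.70 and 0.97 and rose 1.64-fold (0.71 ± 0.25, adjusted p = 0.00134 from limma). CIT1 and CIT2 followed the same order of arrays, and CIT1 was the higher on each by 0.24 ± 0.09. CIT3, a minor mitochondrial citrate and methylcitrate synthase, had -0.18, 0.02 and -0.01 (95% interval -0.27 to 0.17) and lay below CIT2 by 0.76 ± 0.19 and below CIT1 by 1.00 ± 0.21.

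Of the malate dehydrogenases, the peroxisomal gene MDH3 had 0.13, 0.62 and 0.57 and rose 1.36-fold (adjusted p = 0.0151 from limma), like mitochondrial MDH1, while MDH2, the gene of the cytosolic enzyme of gluconeogenesis, had 0.11, -0.03 and -0.01 (95% interval -0.19 to 0.24). MDH3 on replicate 1 was near MDH2, and its call was lost without replicate 2 (adjusted p = 0.144). The difference MDH2 minus MDH3 was -0.41 ± 0.34 and that of MDH1 minus MDH3 changed sign between arrays (-0.10 ± 0.20).

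Over 15 pairs of isozymes and 4 pairs of subunits of a complex, 14 of the 19 differences had the same sign on every array. For each of these the exact two-sided sign-flip permutation test gave p = 0.25, the smallest that 3 arrays allow, or 0.339 adjusted over the 19 pairs. This exact test therefore cannot pass a threshold for any pair. No model-based test of the differences was run, and their spread over arrays is given. Several pairs share a gene, and no count was made for other pairs of genes. The count of 14 is thus a description without a background. Taken singly, 2953 of all 4069 genes had ratios of the same sign on every array. By compartment, 6 of 20 mitochondrial genes rose and 3 fell, 5 of 12 cytosolic genes rose and 2 fell, and 2 of 3 peroxisomal genes rose and none fell, beside 26.9% rising and 27.9% falling among all genes. The mitochondrial share rising, 30.0%, lay near that of all genes.

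**Figure D4:**
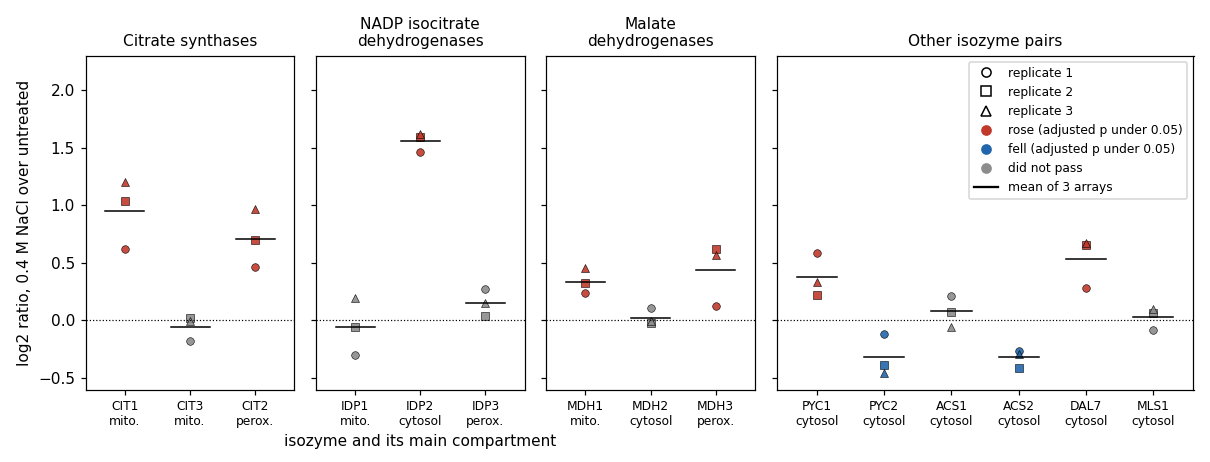
Log2 ratio (NaCl over untreated, y axis) of isozymes on each array, with the main compartment under each gene (mito., mitochondrion, perox., peroxisome). Shapes are replicates and bars are means. IDP2 stands above IDP1 and IDP3 by over 1.4, and PYC1 and PYC2 lie on opposite sides of 0.

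Of the 7 genes of the glyoxylate cycle and gluconeogenesis, MDH2 and MDH3 included, 4 rose while the remaining 3 did not pass in either direction. This was 57.1% rising, beside 26.9% of all 4069 genes. The genes of the 2 enzymes particular to the glyoxylate cycle parted. ICL1, which encodes isocitrate lyase, had 1.30, 1.72 and 1.53 and rose 2.86-fold (1.51 ± 0.21, SD, n = 3, adjusted p = 1.63e-05 from limma). MLS1, the gene of malate synthase and thus of the next reaction, had -0.08, 0.07 and 0.10 (0.03 ± 0.10, 95% interval -0.19 to 0.25). DAL7 encodes a second malate synthase, which serves the breakdown of allantoin, a nitrogen source. DAL7 had 0.28, 0.66 and 0.67 and rose 1.45-fold (adjusted p = 0.00436), above MLS1 by 0.51 ± 0.13.

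The genes of the 2 key enzymes of gluconeogenesis also parted. FBP1, which encodes fructose-1,6-bisphosphatase, had 0.28, 0.43 and 0.59 and rose 1.35-fold (adjusted p = 0.0074 from limma), which missed the threshold without replicate 2 (adjusted p = 0.0608). PCK1, encoding phosphoenolpyruvate carboxykinase, had -0.41, -0.12 and 0.05 and did not pass (95% interval -0.42 to 0.10).

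The 3 genes of enzymes that feed or drain the pool of oxaloacetate and malate included the largest decrease. MAE1, encoding the mitochondrial malic enzyme, which turns malate into pyruvate, had -1.20, -1.34 and -1.73 and fell 2.69-fold (mean -1.43 ± 0.27, SD, n = 3, adjusted p = 4.03e-05 from limma). All 21 of its spot values were below -1. The pyruvate carboxylase genes PYC1 and PYC2, whose products make oxaloacetate from pyruvate in the cytosol, went in opposite directions. PYC1 had 0.58, 0.22 and 0.34 and rose 1.30-fold (adjusted p = 0.0161), and PYC2 had -0.12, -0.39 and -0.45 and fell 1.25-fold (adjusted p = 0.0312). PYC1 was above PYC2 by 0.70 ± 0.09, with 0.70, 0.61 and 0.79 on the single arrays. The call for PYC2 was lost without replicate 2 (adjusted p = 0.25) or replicate 3 (0.151).

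Genes of the pyruvate dehydrogenase complex, which joins glycolysis to the TCA cycle, divided within the complex. PDX1, encoding the protein that binds the lipoamide dehydrogenase to the core, had 0.73, 0.46 and 0.43 and rose 1.45-fold (adjusted p = 0.00281 from limma). PDA1, the gene of the E1 alpha subunit, had 0.54, 0.59 and 0.32 and rose 1.40-fold (adjusted p = 0.00422). PDB1, the gene of the E1 beta subunit, with which the alpha subunit forms a tetramer, had -0.05, -0.27 and -0.35 (95% interval -0.45 to 0.01). PDA1 lay above PDB1 on every array, by 0.70 ± 0.14. LAT1, encoding the core acetyltransferase E2, had -0.06, 0.07 and -0.11 (95% interval -0.25 to 0.18). Without replicate 2 the call for PDA1 was lost (adjusted p = 0.0637), and without replicate 1 PDB1 passed as lower (adjusted p = 0.0140).

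Acetyl-CoA outside the mitochondrion is made by 2 synthetases. ACS2, the gene of the form needed for growth on glucose, had -0.26, -0.41 and -0.29 and fell 1.25-fold (adjusted p = 0.0196 from limma), which missed the threshold without replicate 2 (adjusted p = 0.269). ACS1, the gene of the form used on acetate and ethanol, had 0.21, 0.08 and -0.05 (95% interval -0.15 to 0.30). ACS1 was above ACS2 on every array, by 0.40 ± 0.14.

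The carnitine shuttle carries acetyl units into mitochondria as acetylcarnitine. CRC1, encoding the carrier of the inner membrane, had 0.69, 0.73 and 0.64 and rose 1.61-fold (0.68 ± 0.05, adjusted p = 0.000454 from limma). The genes of the 3 carnitine acetyltransferases did not pass. CAT2, encoding the main form in mitochondria and peroxisomes, had -0.25, 0.22 and 0.35, and YAT1, that of the outer mitochondrial membrane, had 0.04, -0.27 and -0.51, in the opposite order of arrays. YAT2, the gene of the third form, had -0.08, 0.07 and 0.23. Without replicate 1, CAT2 passed as higher (adjusted p = 0.0217) and YAT1 as lower (adjusted p = 0.0102).

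Both transporters of carbon acids at the plasma membrane rose. JEN1, which encodes the permease for lactate and pyruvate, had 1.13, 1.10 and 1.03 and rose 2.12-fold (1.08 ± 0.05, SD, n = 3, adjusted p = 3.94e-05 from limma). ADY2, encoding a permease for acetate, had 0.97, 1.29 and 1.07 and rose 2.16-fold (1.11 ± 0.17, adjusted p = 6.59e-05). The spots of these genes were the most uneven of the 38. The spots of ADY2 spanned -0.06 to 1.36 on replicate 1 and 0.15 to 1.53 on replicate 3, and those of JEN1 spanned 0.10 to 1.36 on replicate 2. With the median of spots in place of the mean, ADY2 stood at 1.24 and JEN1 at 1.19.

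Genes that act around these enzymes were taken from lists of neighbouring functions, with 26.9% of all genes rising and 27.9% falling as the background. Because earlier results were known when the lists were chosen, counts within them are a description and not a test. Of 18 regulators of respiratory and gluconeogenic genes, 8 rose, 3 fell and 7 did not pass. NRG1 (2.66 ± 0.35) and NRG2 (2.46 ± 0.19), which encode repressors of glucose-repressed genes, rose most, and MIG2 (-1.48 ± 0.28), whose product also represses such genes, fell most. CAT8, which encodes an activator of gluconeogenic genes, had 1.02, 1.26 and 1.48 and rose 2.39-fold, while SIP4, whose product binds the same carbon source element as Cat8, had 0.04 ± 0.06 and did not pass. SIP4 and the genes in the next sentence were named after their values were seen. ADR1, encoding an activator of genes for ethanol and fatty acid use, rose by 1.23 ± 0.12, and all 4 genes of the Hap complex, an activator of respiratory genes, rose, with HAP2 at 1.13 ± 0.04, HAP5 at 0.77 ± 0.21, HAP4 at 0.61 ± 0.17 and HAP3 at 0.26 ± 0.05. RTG1, which encodes a subunit of the retrograde activator of CIT2, fell by 0.37 and RDS2, a regulator of gluconeogenesis, by 0.29 on the log2 scale. Without replicate 2, the calls for HAP3 (adjusted p = 0.342), RTG1 (0.0529) and RDS2 (0.239) were lost, and those for HAP3 (0.0946) and RDS2 (0.0933) also without replicate 3.

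All 7 measured genes of the GID ubiquitin ligase complex and its partners, which mark gluconeogenic enzymes such as Fbp1 and Pck1 for degradation when glucose returns, rose. VID28 stood at 1.30 ± 0.25, GID8 at 1.09 ± 0.08, VID30 at 0.77 ± 0.02 and FYV10 at 0.66 ± 0.13, all with an adjusted p under 0.001 from limma. The lowest of the 7, named after its value was seen, was RMD5 at 0.47 ± 0.11, whose call was lost without replicate 2 (adjusted p = 0.0775).

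Of 9 genes for the entry of lactate, succinate and ethanol carbon, 5 rose, 1 fell and 3 did not pass. ALD4 (4.15 ± 0.14) and ALD6 (2.07 ± 0.25), encoding the mitochondrial and the cytosolic aldehyde dehydrogenase that make acetate, rose more than any of the 38 genes. CYB2, the gene of the L-lactate dehydrogenase of mitochondria, rose 1.80-fold (0.85 ± 0.21), beside the rise of JEN1. DLD3, encoding a cytosolic D-lactate dehydrogenase, fell 2.45-fold (mean -1.29 ± 0.24).

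Of 8 mitochondrial carriers of metabolites, 3 rose and 3 fell. YHM2, encoding a carrier of citrate and oxoglutarate, fell 2.05-fold (mean -1.03 ± 0.23), and OAC1, the gene of the oxaloacetate carrier, fell 1.79-fold (mean -0.84 ± 0.23). LEU5, needed for coenzyme A in mitochondria, rose 1.48-fold, and ODC2, an oxodicarboxylate carrier gene, rose 1.38-fold, which missed the threshold without replicate 2 (adjusted p = 0.0700). None of 4 genes for lipoate attachment and pyruvate dehydrogenase control passed the test, with means between -0.20 and 0.13, and 0 of them had an unadjusted p under 0.05 in limma.

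**Figure D5:**
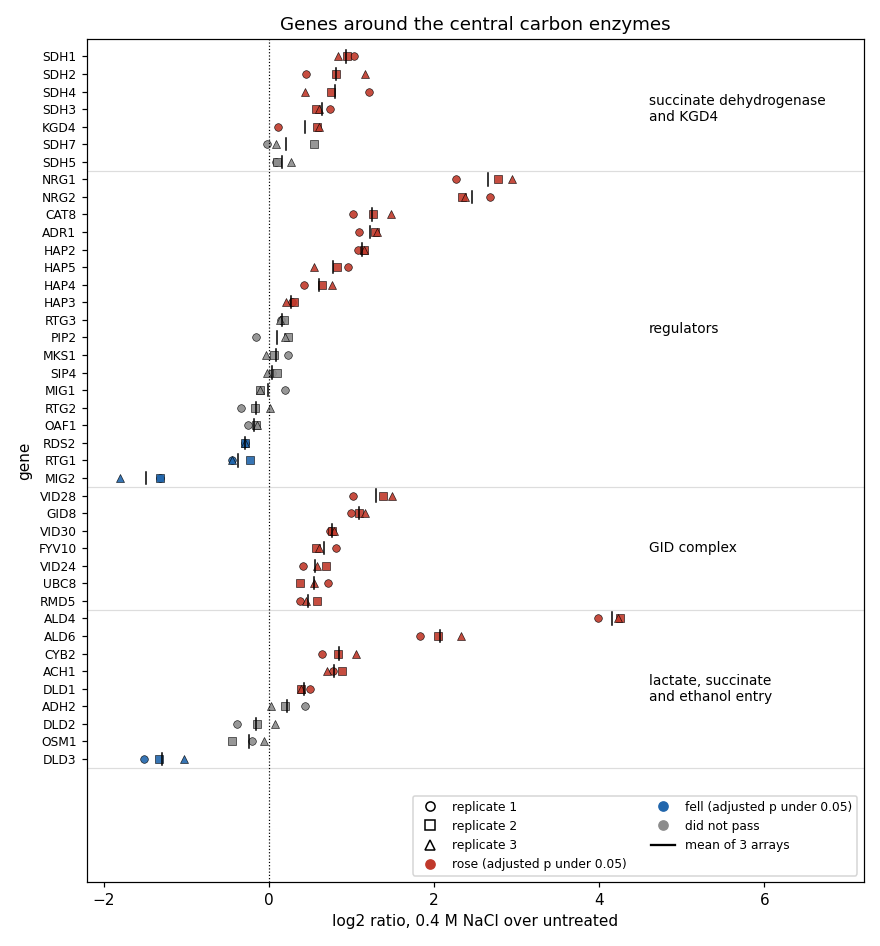
Log2 ratio (NaCl over untreated, x axis) of genes around the 38, on each array, in 4 lists. Shapes are replicates, bars are means and colours give the limma call. Every measured gene of the GID complex lies right of 0 on every array, and the regulators run from MIG2 at -1.48 to NRG1 at 2.66.

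DAL7 lies in a cluster of genes for allantoin use, and the order of genes in R64 gave its neighbours. In the order DAL1, DAL4, DAL2, DCG1, DAL7 and DAL3, the mean log2 ratios were 0.23, -0.43, 0.08, -0.18, 0.54 and 1.48. DAL3, the gene next to DAL7, which encodes an enzyme of the same breakdown, rose 2.79-fold (1.48 ± 0.29, adjusted p = 3.74e-05 from limma) and the allantoin permease gene DAL4 fell 1.35-fold, which missed the threshold without replicate 2 (adjusted p = 0.148). DAL1 and DAL2, whose enzymes come before that of DAL3, did not pass. The cluster held genes of either direction. Over the whole list of allantoin and urea use, 3 of 12 genes rose (25%) and 3 fell (25%). Among all named genes 26.9% rose and 27.9% fell, so the shares of the list lay near those of all genes. The other risers of the list were GAT1 (0.96 ± 0.22), encoding an activator of nitrogen-repressed genes, and DUR3 (0.89 ± 0.11), encoding a urea permease.

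Immediate neighbours on the chromosome were looked up for every one of the 38 genes. For comparison, 26.9% of all named genes rose and 27.9% fell. The 15 genes that rose had 23 neighbours with a value, of which 12 rose (52.2%) and 4 fell. The 5 genes that fell had 7, of which 2 rose and 3 fell. The 18 genes that did not pass had 24 neighbours with a value, of which 7 rose (29.2%) and 4 fell. Among the 12 were ATO2, a gene of the same family as ADY2, which lies next to CIT1 and rose by 1.17 ± 0.24, and the genes on either side of PDX1, the glyceraldehyde-3-phosphate dehydrogenase gene TDH3 (1.18 ± 0.20) and the xylulokinase gene XKS1 (1.53 ± 0.15). The 4 falling neighbours of genes that rose were RAS1 beside CRC1 (-1.28), CBF5 beside IDP2 (-0.86), SDA1 beside LSC2 (-0.68) and DOM34 on the other side of CIT1 (-0.33). IDH1, which fell, lies beside NCE103, the gene of carbonic anhydrase, which rose by 3.54 ± 0.36. These neighbours were named after their values were seen, and no test was made of the counts.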

How the data were processed

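The deposited table holds, for each spot of each array, a normalized log2 ratio made by the authors. The submitters' processing notes name limma. The version, background correction and normalization used were not given in the sources used here. The table states neither log base nor direction. Of the genes that the study lists as over 1.75-fold upon osmostress, 385 carry a name. Every one of these, chosen by the study on the same arrays, was positive on all 3 arrays, with means no lower than 0.72, near 0.81, the log2 of 1.75. Values were therefore read as log2 of NaCl over untreated cells, that is, Cy3 over Cy5, although no source used here states which dye was on top. The labels and methods give 15 minutes of stress, and the study's results text gives a shorter time.

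Spots were named through the platform table, and 28532 of 45220 (63.1%) carried 1 symbol. Symbols were updated with the R64 table, used for names and gene order only. On each array the mean over a gene's spots was taken. Then limma (version 3.58.1, R 4.3.3) fitted an intercept to the 3 ratios of each of 4069 genes, followed by empirical Bayes and Benjamini-Hochberg adjustment. The procedure was tested on simulated data. Intervals are 95% intervals of this fit. Their width and every limma p rest on the spread between 3 cultures, shrunk by empirical Bayes toward a variance shared by all 4069 genes. For a gene with little spread of its own this widens the interval. LPD1, for example, had an SD over arrays of 0.03 and a standard error in the fit of 0.09. The number of arrays limits the precision. Array medians over all genes were near 0 (-0.001, -0.013 and -0.023), and a shift common to every mRNA is invisible in such ratios. Differences between genes of a pair were taken on each array. Tables were made with Python 3.11.15, pandas 2.3.3 and scipy 1.17.1.

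The members and lists were chosen with earlier results of these data known. Every member is reported. Of each further list, up to 4 genes with the largest change past the threshold are named, with any that moved against most of it. Genes named outside this rule are marked as chosen after their values were seen. Alternatives were the median of spots, centring and scaling of arrays, robust empirical Bayes, a threshold of 0.01 and leaving out each replicate. Promoter motifs had been planned but were not analysed here.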

Additional observations from a re-analysis of the deposited data

How the results depend on the processing

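Of the 20 genes that rose or fell among the 38, 13 kept the call in every alternative at the threshold of 0.05, 11 of them rising and 2, ACO1 and MAE1, falling. Leaving out a replicate had the most effect. Without each replicate in turn, 11 to 18 of the 38 rose and 2 to 7 fell, the lower numbers without replicate 2. Over all named genes 777 to 1282 rose and 695 to 1340 fell, beside 1093 and 1135 with all 3 arrays. There too the lower numbers came without replicate 2. A call could be lost with little change in the mean. FBP1 stood at 0.43 with all 3 arrays and without replicate 2, and RDS2 at -0.29 in both. At a threshold of 0.01, 12 rose and 3 fell. With arrays centred on the median KGD2 passed as well (adjusted p = 0.05, rounded up), and neither the median of spots, the scaling of arrays nor robust empirical Bayes changed a call among the 38. Values near 0 changed sign when a replicate was left out, with ranges of -0.0928 to 0.00794 for CIT3, -0.0402 to 0.10 for LSC1, -0.18 to 0.0672 for IDP1, -0.0161 to 0.0508 for MDH2, -0.00786 to 0.0845 for MLS1, -0.0884 to 0.0012 for LAT1, -0.0146 to 0.28 for CAT2, -0.00779 to 0.15 for YAT2 and -0.0025 to 0.18 for DAL2. The difference CAT2 minus YAT2 ran from -0.0207 to 0.14 and was -0.0233 with the median of spots. None of these genes passed with all 3 arrays, and CAT2 passed without replicate 1. The cause was not tested. Each ratio sets stressed against untreated RNA of the same culture, so the fit reported is itself paired by culture. Beyond it, no paired analysis was possible because the array is already the block.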
